A study of Mus musculus with 4 samples.

Results

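Collagen chain genes were examined in cultured cortical astrocytes of both genotypes, WT and CRTC3 KO. All genes whose symbol has the form Col, a number, a and a number in the platform annotation were taken, which gave 44 of the 22180 genes with a probe set of their own. They comprised 11 fibrillar chains, 6 basement membrane chains (type IV), 9 FACIT chains, 6 beaded filament chains (type VI), 3 network chains (types VIII and X), 4 transmembrane chains, 2 multiplexin chains (types XV and XVIII), the anchoring fibril chain gene *Col7a1* and 2 further genes, *Col26a1* and *Col28a1*. The astrocytes came from the cerebral cortex of pups at postnatal days 1 to 3, either WT or with a systemic knockout, backcrossed to C57BL/6J, of CRTC3, a coactivator of the cAMP-responsive transcription factor CREB. Attached cells were cultured after shaking off microglia and received vehicle (0.1% DMSO) or 25 µM forskolin (FSK) for 2 h, which activates adenylyl cyclase and raises cAMP. Each of these 4 conditions was measured on 1 Affymetrix mouse 2.0 ST array, so differences have no replicate check, no error between cultures and no p-value. How many pups entered a culture, and whether the 2 arrays of a genotype came from the same culture, is not given in the sources used here, nor is how long the vehicle was applied.

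Collagens are secreted proteins whose chains wind around each other into a rope-like helix. Fibrillar collagens (types I, II, III, V, XI, XXIV and XXVII) form the fibrils of connective tissue, and FACIT collagens sit on the surface of such fibrils. Type IV forms the sheet of basement membranes, and type VI forms beaded filaments between fibrils and cells. In the brain, fibrillar collagens are made mainly by fibroblasts of the meninges and the vessel wall, whereas the basement membranes around vessels and under the pial surface hold type IV collagen.

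Most collagen chain genes had a lower signal in CRTC3 KO than in WT astrocytes, and the large differences lay in a few trimer families. With vehicle, 36 of the 44 genes were lower in CRTC3 KO, against 48.2% of all genes, and the median log2 difference was -0.27 against 0.01 over all genes. At least 2-fold lower were 8 of the 44, namely *Col6a3*, *Col1a2*, *Col3a1*, *Col1a1*, *Col5a1*, *Col6a1*, *Col6a2* and *Col7a1*, where 0.478% of all genes were. On the FSK arrays, 32 of the 44 were lower against 50% of all genes, with a median of -0.24 against -0.00, and 10 were at least 2-fold lower against 0.825% of all genes. These 10 were the same 8 genes with *Col4a1* and *Col4a2*. None of the 44 was at least 2-fold higher in CRTC3 KO in either comparison, where 0.117% and 0.293% of all genes were. No collagen gene differed by 2-fold between FSK and vehicle in either genotype.

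**Figure D1:**
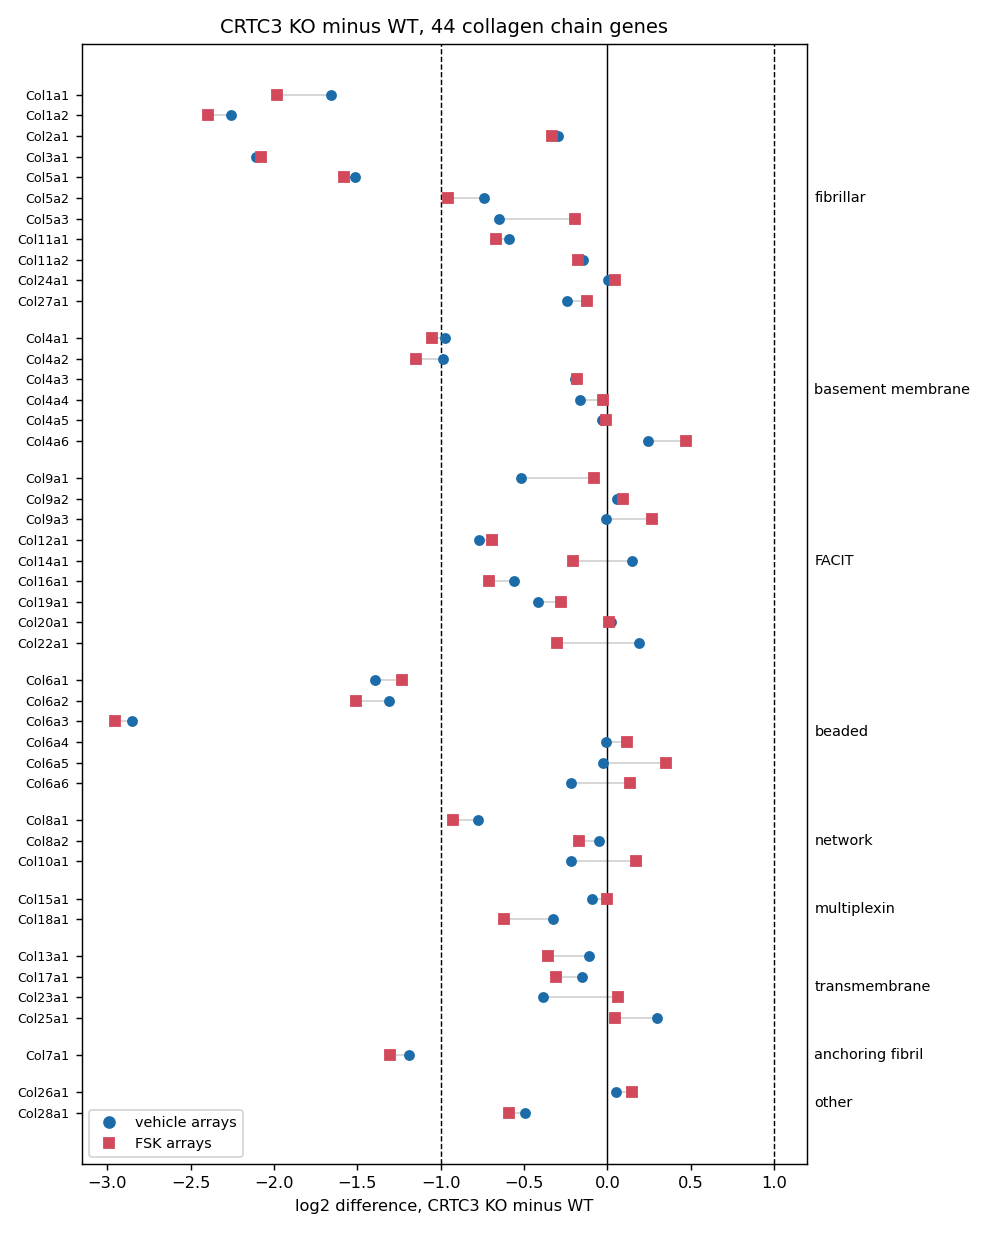
Log2 difference between CRTC3 KO and WT (horizontal axis) for each of the 44 collagen chain genes, grouped by class, with vehicle (circles) and with FSK (squares); dashed lines mark a 2-fold difference and each point rests on 1 array per condition. The points beyond 2-fold lower belong to types I, III, IV, V, VI and VII, and no point lies beyond 2-fold higher.

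Markers of fibroblasts moved in the same direction as the collagens. Without collagen genes, 13 of 14 markers of fibroblasts and meningeal cells were lower in CRTC3 KO on the vehicle arrays and 13 on the FSK arrays, with medians of -0.52 and -0.62, where 48.2% and 50% of all genes were lower. The exception with vehicle was *Foxc1*, at 0.07, which differed by -0.52 with FSK. With FSK it was *Slc6a13*, at 0.09, which differed by -0.21 with vehicle. At least 2-fold lower were 4 and 5 of the 14, where 0.478% and 0.825% of all genes were. *Postn*, a matricellular protein gene, was 17.5-fold and 20.9-fold lower, *Dpt* 3.35-fold and 4.19-fold and *Fbln2* 3.00-fold and 3.78-fold. *Dcn*, the gene of decorin, which binds type I fibrils, differed by -0.81 and -1.18. *Twist1* differed by -1.15 with vehicle and -0.30 with FSK, *Aldh1a2* by -0.54 and -1.26, and *Lum* and *Slc6a13* were below the median signal on every array. The summed linear signal of the 14 markers was 10860.3 (vehicle) and 11230.4 (FSK) on the WT arrays, against 6990.4 and 6687 on the CRTC3 KO arrays. *Fn1*, the brightest of the 14 on every array, weighs most in this sum and differed by only -0.30 and -0.36. The probes of each gene bind with their own strength, so the sum does not weigh the genes by their RNA. In RNA from whole cultures, fewer cells of a type and less RNA per cell cannot be told apart. The part of these cells in the collagen differences was not tested.

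The sex of the pups moved with genotype too. *Xist*, which is transcribed from the inactive X chromosome, differed between CRTC3 KO and WT by -4.73 with vehicle and by -4.67 with FSK, and the Y-linked *Kdm5d* by 0.44 and 0.63. For every difference between the genotypes given here, collagens and fibroblast markers included, pup sex and genotype cannot be told apart.

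The difference between the genotypes recurred between the vehicle and the FSK arrays, which are separate arrays. Across the 44 genes, which are not independent replicates, the differences with vehicle and with FSK had a Pearson correlation of 0.958. Across all 22180 genes it was 0.515. A correlation depends on how widely the values of a set spread. With vehicle, 8 of the 44 genes were at least 2-fold lower, against 0.478% of all genes. The 2 correlations therefore do not show that collagen genes recurred better than others. Of the 44 genes, 30 were lower in CRTC3 KO in both, against 30.1% of all genes. The 8 genes 2-fold lower with vehicle were all 2-fold lower with FSK as well, as were 78 of the 106 genes 2-fold lower with vehicle among all genes, or 0.352% of the 22180. The FSK arrays differed from the vehicle arrays in this difference by at most 0.49 in one direction (*Col22a1*) and 0.46 in the other (*Col5a3*). Since the cultures behind the 2 arrays of a genotype may be the same, the recurrence does not replicate the genotype.

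Signal limits what can be read for some of these genes. The median log2 signal over all gene probe sets was 5.81, and 28 of the 44 genes had a mean over the 4 arrays at or above it, while 16 lay below. All genes 2-fold lower belong to the 28, beside 0.735% of all genes of that signal at least 2-fold lower with vehicle and 1.22% with FSK, and the 16 dimmer genes had differences between -0.52 and 0.30 with vehicle and between -0.59 and 0.35 with FSK. The values are normalized signals in which small differences at low signal are compressed, so a dim gene may differ by more than its value shows. Levels of different genes are not compared here, because the probes of each gene bind with their own strength.

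Of the fibrillar chains, the chains of types I and III differed most. *Col1a1*, which encodes the α1 chain of type I collagen, read 12.05 (vehicle) and 12.19 (FSK) on the WT arrays and 10.39 and 10.21 on the CRTC3 KO arrays in log2 signal. *Col1a2*, the gene of its partner chain, had signals of 11.30 and 11.35 on the WT arrays and 9.04 and 8.96 on the CRTC3 KO arrays. WT exceeded CRTC3 KO 3.16-fold with vehicle and 3.95-fold with FSK for *Col1a1* and 4.79-fold and 5.26-fold for *Col1a2*. *Col3a1*, whose product forms a trimer of identical chains and joins type I in fibrils of soft tissue, had signals of 9.60 and 9.67 on the WT arrays and 7.49 and 7.59 on the CRTC3 KO arrays. WT was 4.31-fold and 4.21-fold above CRTC3 KO for this gene, which ranked 10 of all 22180 genes from the most lowered with vehicle, next to *Col1a2* at rank 9.

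Type V collagen starts and limits the growth of type I fibrils, and its chains differed unequally. *Col5a1* read 9.63 (vehicle) and 9.53 (FSK) on the WT arrays and 8.12 and 7.96 on the CRTC3 KO arrays in log2 signal, so that WT was 2.85-fold and 2.99-fold higher. *Col5a2* had signals of 9.19 and 9.19 on the WT arrays and 8.45 and 8.23 on the CRTC3 KO arrays, with differences of -0.74 and -0.96, short of 2-fold. *Col5a3*, the third chain, differed by -0.65 with vehicle and by -0.19 with FSK, with signals of 7.50 and 7.24 on the WT arrays and 6.85 and 7.05 on the CRTC3 KO arrays. *Col11a1*, whose chain co-assembles with those of type V, had differences of -0.59 and -0.67.

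The other fibrillar genes differed little. *Col2a1*, the main collagen gene of cartilage, had differences of -0.30 and -0.33, *Col27a1* of -0.25 and -0.13, *Col11a2* of -0.15 and -0.18 and *Col24a1* of 0.00 and 0.05. In all, 10 of the 11 fibrillar genes were lower in CRTC3 KO in each comparison, beside 48.2% and 50% of all genes. The exception was the dim *Col24a1*. The class median was -0.65 with vehicle and -0.67 with FSK.

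**Figure D2:**
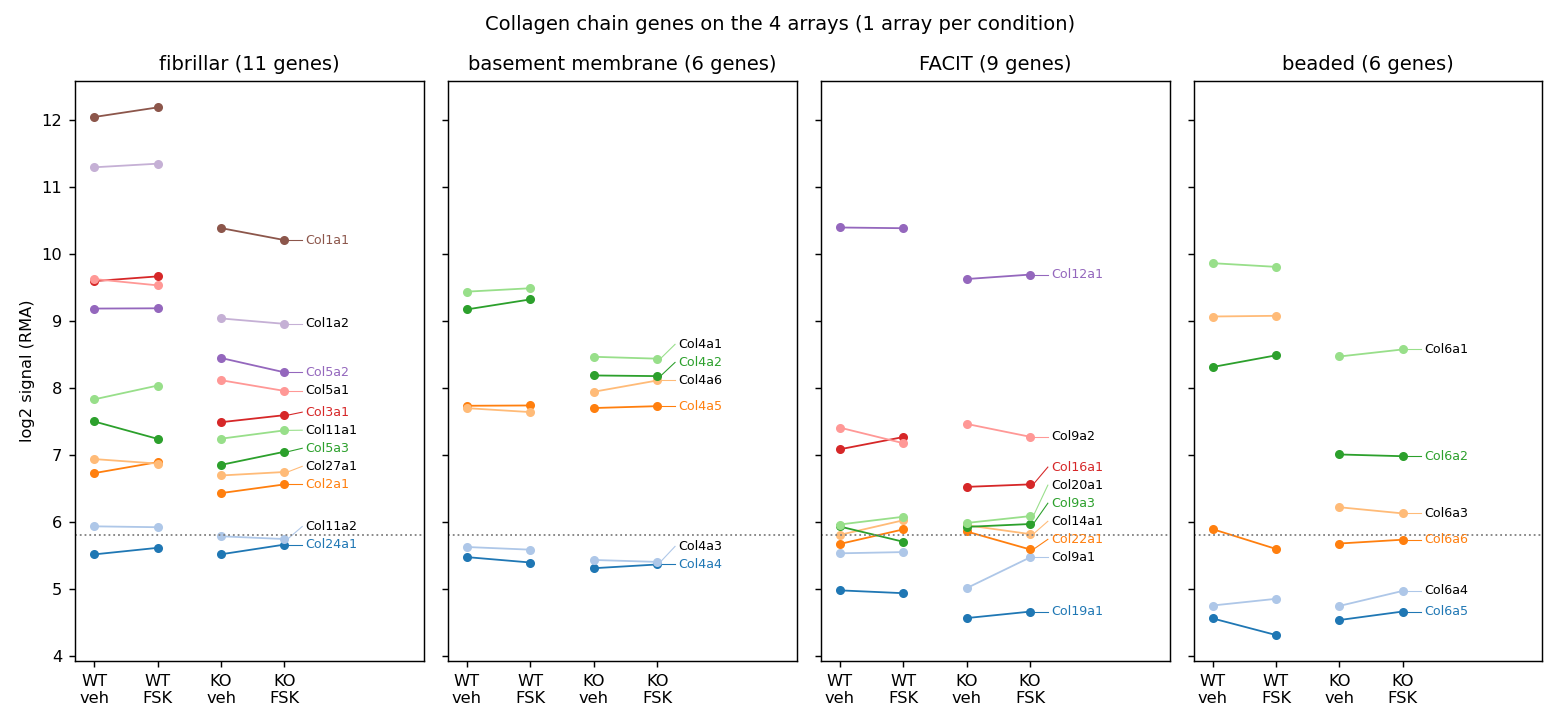
Log2 signal (vertical axis) of the fibrillar, basement membrane, FACIT and beaded collagen genes on the 4 arrays, WT and CRTC3 KO (KO) with vehicle (veh) and FSK, with 1 point per array and the dotted line at the median of all gene probe sets. Lines join vehicle and FSK of one genotype and are nearly level. *Col1a1*, *Col1a2*, *Col3a1*, *Col5a1*, *Col6a1*, *Col6a2* and *Col6a3* step down at least 2-fold between WT and CRTC3 KO, with vehicle and with FSK.

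The bases before the start site are shown for *Col1a2* and *Col3a1*, which ranked among the 20 most lowered of all 22180 genes in each comparison. *Col6a3*, at rank 4 with vehicle and rank 3 with FSK, did so too. Its promoter window held none of the 5 motifs searched, and its bases are not shown. Each run holds 250 bases that end on the first transcribed base, from RefSeq (GRCm38.p6, plus strand), at chr6:4505369-4505618 for *Col1a2* and chr1:45311289-45311538 for *Col3a1*. Capitals mark matches, on either strand, to a CCAAT box (CCAAT), a GC box (GGGCGG) or a TATA box (TATAAA), and are descriptions of letters, not of binding.

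Col1a2: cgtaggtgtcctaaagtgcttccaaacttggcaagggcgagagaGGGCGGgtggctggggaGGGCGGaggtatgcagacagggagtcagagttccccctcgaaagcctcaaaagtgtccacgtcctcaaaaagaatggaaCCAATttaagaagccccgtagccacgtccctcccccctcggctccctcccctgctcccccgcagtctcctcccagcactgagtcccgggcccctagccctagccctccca

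Col3a1: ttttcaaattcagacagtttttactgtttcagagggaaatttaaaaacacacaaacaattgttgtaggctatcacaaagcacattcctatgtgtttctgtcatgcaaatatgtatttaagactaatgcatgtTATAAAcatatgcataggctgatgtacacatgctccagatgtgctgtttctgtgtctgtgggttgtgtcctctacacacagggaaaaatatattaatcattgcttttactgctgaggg

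The *Col1a2* run holds a CCAAT box that begins 109 bases before the start site and GC boxes at 205 and 188 bases before it, whereas the *Col3a1* run holds only a TATA box, at 117 bases. *Col4a1* and *Col4a2*, whose differences with vehicle were -0.97 and -0.99, both held a CCAAT box and a GC box in their windows of 300 bases. Such a window, of which 50 bases follow the start site, was at hand for 35 of the 44 collagen genes. Of these 35, 22 held a GC box, against 35.9% of all 27025 promoters, 12 held a CCAAT box, against 38%, and 5 held a TATA box, against 14.2%.

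Among the beaded filament genes, the 3 chains of the classical type VI trimer were all at least 2-fold lower in CRTC3 KO, and the 3 others were not. *Col6a3*, the gene of the longest chain, read 9.07 (vehicle) and 9.08 (FSK) on the WT arrays and 6.22 and 6.12 on the CRTC3 KO arrays in log2 signal. This 7.22-fold and 7.75-fold excess in WT placed it at rank 4 of all 22180 genes from the most lowered with vehicle and at rank 3 with FSK. *Col6a1* had signals of 9.87 and 9.81 on the WT arrays and 8.47 and 8.58 on the CRTC3 KO arrays, a difference of 2.63-fold and 2.35-fold. *Col6a2* had signals of 8.31 and 8.49 on the WT arrays and 7.01 and 6.98 on the CRTC3 KO arrays, a difference of 2.47-fold and 2.84-fold. The partners *Col6a1* and *Col6a2* were thus lower by a like amount and *Col6a3* by more. *Col6a4*, *Col6a5* and *Col6a6*, which encode alternative chains in the place of the *Col6a3* product, were dim and differed by -0.01, -0.02 and -0.22 with vehicle and by 0.12, 0.35 and 0.14 with FSK. The class median of -0.76 and -0.56 therefore falls between both sets of genes and describes neither.

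Type IV collagen split by its trimer families too. *Col4a1* and *Col4a2* encode the chains found in nearly all basement membranes. *Col4a1* read 9.44 (vehicle) and 9.49 (FSK) on the WT arrays and 8.47 and 8.44 on the CRTC3 KO arrays in log2 signal. *Col4a2* had signals of 9.17 and 9.32 on the WT arrays and 8.19 and 8.18 on the CRTC3 KO arrays. WT was 1.96-fold above CRTC3 KO with vehicle and 2.07-fold with FSK for *Col4a1*, and 1.98-fold and 2.21-fold for *Col4a2*, so both genes lay just short of the 2-fold limit with vehicle and just past it with FSK. *Col4a5* and *Col4a6*, whose chains form a trimer of other basement membranes, differed little or were higher. *Col4a5* had signals of 7.73 and 7.74 on the WT arrays and 7.70 and 7.73 on the CRTC3 KO arrays, and *Col4a6* of 7.70 and 7.64 on the WT arrays and 7.94 and 8.11 on the CRTC3 KO arrays. *Col4a6* had the highest difference of all 44 genes on the FSK arrays, at 0.47. *Col4a3* and *Col4a4*, known for their part in the kidney filter, were dim, with differences between -0.19 and -0.03. The median of the 6 genes was -0.18 with vehicle and -0.11 with FSK.

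The FACIT genes held no gene at 2-fold. *Col12a1*, which encodes a chain on the surface of type I fibrils, read 10.40 (vehicle) and 10.39 (FSK) on the WT arrays and 9.63 and 9.69 on the CRTC3 KO arrays in log2 signal, a difference of 1.71-fold and 1.62-fold. *Col16a1* had signals of 7.08 and 7.27 on the WT arrays and 6.52 and 6.56 on the CRTC3 KO arrays, with differences of -0.56 and -0.71. These were the largest differences of the class among its 6 genes at or above the median signal. *Col14a1*, another chain that binds type I fibrils, was near the median signal and differed by 0.14 and -0.21. Of the type IX genes, which belong to cartilage, *Col9a2* differed by 0.06 and 0.10, *Col9a3* by -0.01 and 0.26 and the dim *Col9a1* by -0.52 and -0.08. *Col19a1*, *Col20a1* and *Col22a1* lay between -0.41 and 0.19 in both comparisons. The class median was -0.01 with vehicle and -0.21 with FSK. In CRTC3 KO, 5 and 6 of the 9 genes were lower, beside 48.2% and 50% of all genes.

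In the remaining classes, *Col7a1* and *Col8a1* stood out. *Col7a1*, which encodes the chain of the fibrils that anchor epidermis to dermis, read 7.76 (vehicle) and 7.74 (FSK) on the WT arrays and 6.56 and 6.44 on the CRTC3 KO arrays in log2 signal, a difference of 2.28-fold and 2.47-fold. *Col8a1*, which encodes a network-forming chain of vessel walls and the cornea, had signals of 9.75 and 9.82 on the WT arrays and 8.98 and 8.89 on the CRTC3 KO arrays, or 1.71-fold and 1.90-fold lower in CRTC3 KO. Its partner gene *Col8a2* was dim and differed by -0.05 and -0.17. *Col18a1*, the source of endostatin, differed by -0.32 and -0.62, and *Col28a1* by -0.49 and -0.59. The 4 transmembrane genes, *Col13a1*, *Col17a1*, *Col23a1* and *Col25a1*, lay between -0.38 and 0.30, and *Col10a1*, *Col15a1* and *Col26a1* between -0.22 and 0.17.

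Several collagen genes lie side by side in the genome, and neighbours did not always differ alike. In the RefSeq annotation of GRCm38.p6, 15 of the 44 genes form 8 pairs at most 100000 bases apart. *Col4a1* (chr8:11198423-11312889, minus strand) and *Col4a2* (chr8:11312805-11449287, plus strand) run away from each other and overlap by 85 bases at their 5′ ends, and their differences with vehicle were -0.97 and -0.99. *Col4a6* (chrX:141165403-141474095, minus strand) and *Col4a5* (chrX:141475370-141689236, plus strand) face away from each other across 1274 bases and differed by 0.25 and -0.03. *Col6a2* and *Col6a1* lie 85161 bases apart on chromosome 10, in the same direction, and differed by -1.31 and -1.39. *Col3a1* and *Col5a2* are 24624 bases apart on chromosome 1, yet their differences with vehicle were -2.11 and -0.74. The type I partner genes *Col1a1* and *Col1a2*, on chromosomes 11 and 6, differed by -1.66 and -2.26.

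For 3 genes a second probe set served as a check within the same arrays. The second probe set of *Col1a2* gave differences between the genotypes of -2.17 with vehicle and -2.45 with FSK, beside -2.26 and -2.39 in the first. For *Col6a1* it gave -1.12 and -1.57, beside -1.39 and -1.23. For *Col5a1* it gave -0.81 and -0.46, beside -1.51 and -1.58, and its signals in CRTC3 KO were 5.44 and 5.75, below the median of gene probe sets. The direction was thus the same in both probe sets of each gene, and *Col5a1* was past 2-fold in only 1 of them. Over the 1082 genes with several probe sets, their disagreement had an SD of 0.205 with vehicle and 0.249 with FSK, which measures spread within arrays and not between cultures.

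The response of the collagen genes to FSK was small in both genotypes. In WT astrocytes, 25 of the 44 genes had a higher and 19 a lower signal with FSK than with vehicle, where 50.3% of all genes were lower, and the median log2 response was 0.01. In CRTC3 KO astrocytes, 24 were higher and 20 lower, where 51.8% of all genes were lower, and the median was 0.02. None reached 2-fold. Over all genes, 0.122% passed 2-fold upward with FSK in WT and 0.0586% downward, and in CRTC3 KO these shares were 0.0271% and 0.0496%. All 44 responses in WT lay within the middle 95% of all genes, from -0.42 to 0.47. In CRTC3 KO, 42 of the 44 lay within it, from -0.42 to 0.38, and the other two were *Col9a1* and *Col23a1*.

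The chains that differed most between the genotypes had responses near 0. In WT and then CRTC3 KO, the response of *Col1a1* was 0.14 and -0.18, that of *Col1a2* 0.05 and -0.08 and that of *Col3a1* 0.07 and 0.11. *Col6a3* had responses of 0.01 and -0.09, *Col4a1* of 0.05 and -0.03 and *Col4a2* of 0.15 and -0.01. These are within the SD of 0.198 and 0.192 by which probe sets of one gene disagreed in WT and in CRTC3 KO. The largest responses came from other members: *Col10a1*, the gene of hypertrophic cartilage, had -0.38 in WT, *Col6a6* -0.30, *Col5a3* -0.26, *Col6a5* -0.25 and *Col28a1* 0.24, while *Col9a1* had 0.46, *Col23a1* 0.42 and *Col22a1* -0.27 in CRTC3 KO. Of these, *Col5a3* and *Col23a1* reached the median signal by their mean. The class medians were 0.05 in WT and 0.05 in CRTC3 KO for fibrillar, -0.02 and 0.01 for basement membrane, 0.02 and 0.04 for FACIT and -0.02 and 0.08 for beaded genes.

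**Figure D3:**
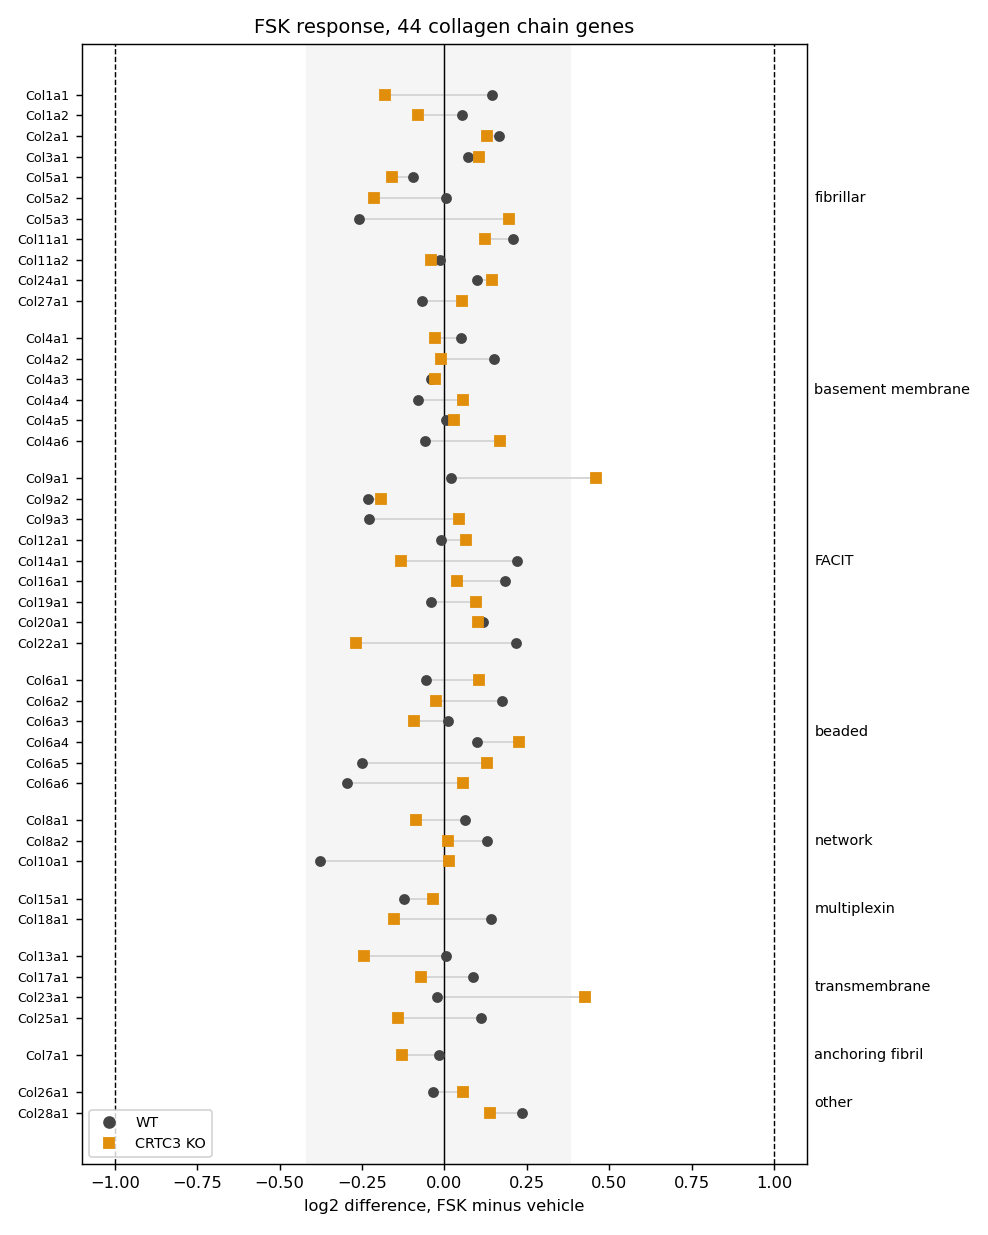
Log2 response to FSK (horizontal axis, FSK minus vehicle) of each of the 44 collagen chain genes, in WT (circles) and CRTC3 KO (squares), from 1 array per condition; the shaded band is the range shared by the middle 95% of all genes in both genotypes and dashed lines mark 2-fold. All WT points lie in the band, and *Col9a1* and *Col23a1* in CRTC3 KO lie to its right.

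FSK acts on CREB target genes through the cAMP response element (CRE), whose letters are TGACGTCA. Among the 35 collagen genes with a promoter window, 1 held these letters, *Col24a1*, against 1.85% of all promoters. The shorter half-site TGACG, on either strand and counted also inside the full element, was in 4 of the 35, *Col24a1*, *Col4a5*, *Col7a1* and *Col11a2*, against 20.9%. *Col24a1* is shown because it alone carries the full element, which begins 7 bases before the start site and ends on the first transcribed base. The run of 250 bases is from RefSeq (GRCm38.p6, chr3:145292223-145292472, plus strand), with the element in capitals.

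Col24a1: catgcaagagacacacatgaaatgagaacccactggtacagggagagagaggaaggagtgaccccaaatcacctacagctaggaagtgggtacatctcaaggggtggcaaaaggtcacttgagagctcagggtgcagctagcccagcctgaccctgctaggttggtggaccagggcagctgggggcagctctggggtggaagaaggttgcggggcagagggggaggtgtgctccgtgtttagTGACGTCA

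*Col24a1*, whose chain is a minor fibrillar one, was dim, and read 5.51 (vehicle) and 5.61 (FSK) on the WT arrays and 5.51 and 5.66 on the CRTC3 KO arrays in log2 signal. Its responses of 0.10 and 0.14 were within the disagreement between probe sets. *Col4a5*, *Col7a1* and *Col11a2* had responses between -0.02 and 0.00 in WT, while those in CRTC3 KO lay between -0.13 and 0.03.

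Genes that act on collagens were lower in CRTC3 KO in part, and the procollagen processing and crosslinking genes had the lowest medians of the 4 lists. Of 17 genes measured for the modification and folding of collagen chains, 15 were lower with vehicle and 14 with FSK, beside 48.2% and 50% of all genes, and 1, *Serpinh1*, was at least 2-fold lower in each, beside 0.478% and 0.825%. *Serpinh1* encodes the collagen chaperone HSP47 and read 9.43 (vehicle) and 9.46 (FSK) on the WT arrays and 8.31 and 8.31 on the CRTC3 KO arrays in log2 signal. The prolyl hydroxylase subunit gene *P4hb* differed by -0.43 and -0.45 and *Crtap*, the gene of a partner of prolyl 3-hydroxylase, by -0.64 and -0.86. The median of these genes was -0.25 and -0.32.

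Of 12 genes of procollagen processing and crosslinking, 11 were lower with vehicle and 12 with FSK, beside 48.2% and 50% of all genes, 3 and 4 of them at least 2-fold, beside 0.478% and 0.825%. *Lox*, which encodes the lysyl oxidase that crosslinks fibrils, read 10.90 (vehicle) and 10.99 (FSK) on the WT arrays and 9.21 and 9.13 on the CRTC3 KO arrays in log2 signal, or 3.21-fold and 3.63-fold lower in CRTC3 KO. *Pcolce*, the enhancer of the C-propeptide protease, was 2.54-fold and 2.83-fold lower, and *Tll1*, which encodes a tolloid-like protease, 3.08-fold and 4.73-fold lower. *Loxl1* passed 2-fold only with FSK, at 2.08-fold. *Tll1* also had the largest response to FSK of these 12 genes in WT, 0.78, beside 0.16 in CRTC3 KO. The median of the list was -0.41 with vehicle and -0.84 with FSK.

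Of 10 collagen receptor genes, 6 were lower with vehicle and 7 with FSK, beside 48.2% and 50% of all genes, and 2 and 3 were at least 2-fold lower, beside 0.478% and 0.825%. *Itga11*, the integrin subunit gene for fibrillar collagen, was 2.92-fold lower with vehicle and 3.30-fold lower with FSK, and *Mrc2*, which encodes an endocytic collagen receptor, 2.38-fold and 2.51-fold lower. *Ddr2*, a receptor tyrosine kinase gene, had log2 differences of -0.81 and -1.04, while its relative *Ddr1* was higher by 0.44 and 0.33. *Itgb1*, whose product pairs with all collagen-binding integrin subunits, differed by -0.40 and -0.40.

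Of 14 genes of other basement membrane proteins, 9 were lower with vehicle and 9 with FSK, beside 48.2% and 50% of all genes. *Nid1* and *Lamb1* were at least 2-fold lower in each comparison, beside 0.478% and 0.825%. *Nid1*, which encodes the linker of laminin and type IV collagen, had differences of -1.69 and -1.78 and the laminin chain gene *Lamb1* of -1.53 and -1.96. The laminin chain gene *Lamc1* differed by -0.02 and -0.00 and the perlecan gene *Hspg2* by -0.65 and -0.82. The laminin chain gene *Lama4* differed by -0.93 and -0.996 and *Lama2* by -0.67 and -0.99, while 5 of the 14 genes were higher in each comparison. The median was -0.12 in both comparisons.

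Among the other cell types, astrocyte markers had medians close in size to those of the fibroblast markers (-0.52 and -0.62) but opposite in sign. The medians of the remaining cell types were smaller in size. All 10 astrocyte markers were higher in CRTC3 KO in both comparisons, where 11468 (vehicle) and 11055 (FSK) of all 22180 genes were. Their medians were 0.51 and 0.53. The summed linear signal of these markers was 8718 and 8818 on the WT arrays, against 12202 and 12834 on the CRTC3 KO arrays. Of these markers, *Gfap*, *Aqp4*, *Slc1a3* and *Sox9* had log2 signals of at least 9.57 on every array. *Slc1a2* lay between 6.75 and 7.62, and *S100b* was below the median signal on every array. Markers of other cells were bright too. All 8 markers of microglia and macrophages reached the median signal by their mean, and *Csf1r*, *Cd68* and *Itgam* read between 10.1 and 11.1. *Acta2*, from the mural cell list, read between 12.1 and 12.6. The 10 mural cell markers, which mark another source of vessel wall collagen, had medians of -0.12 and -0.27, and of these *Rgs5*, *Kcnj8*, *Abcc9* and *Des* were below the median signal on every array. The medians were -0.10 and -0.12 for the 9 endothelial markers, 0.21 and 0.20 for the 8 markers of microglia and macrophages, 0.00 and 0.00 for the 7 neuron markers and -0.04 and 0.03 for the 7 markers of oligodendrocytes and precursors. None of the markers outside the fibroblast list differed by 2-fold. *Crtc3* itself had a difference of -2.83 and -2.65.

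**Figure D4:**
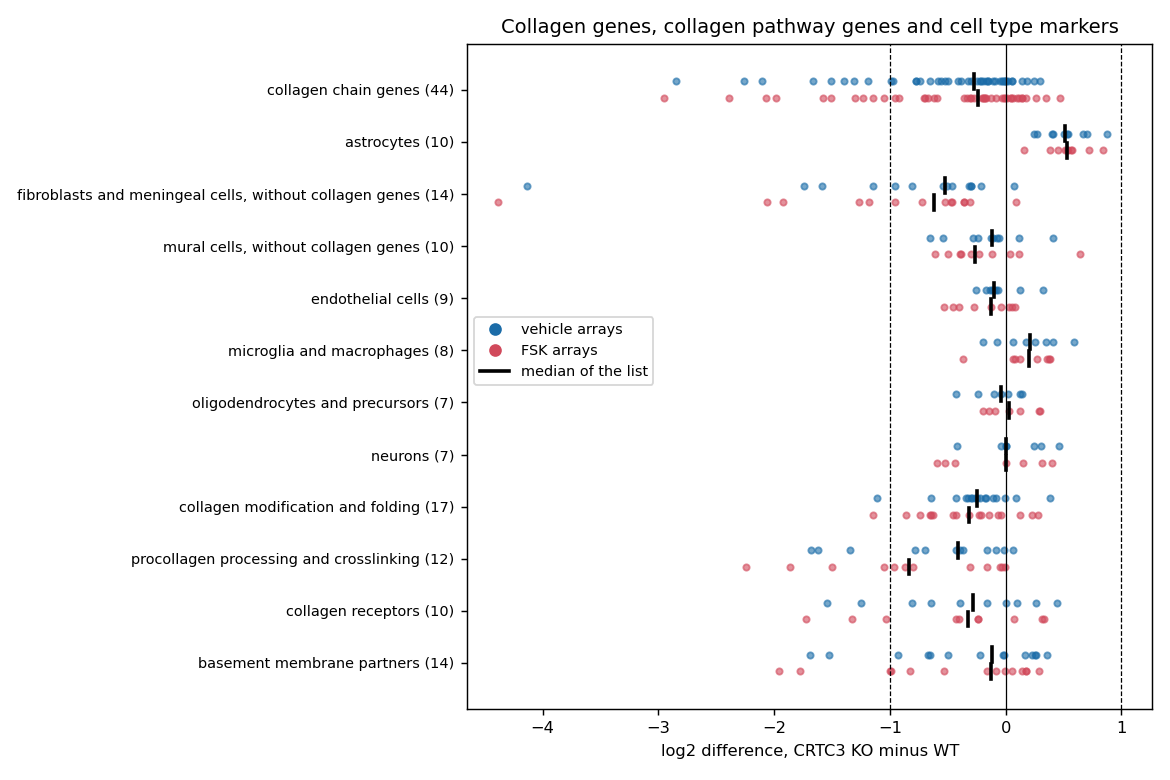
Log2 difference between CRTC3 KO and WT (horizontal axis) of each gene of the collagen chains, of 4 lists of the collagen pathway and of markers of 7 cell types, with vehicle and with FSK (1 array per condition); black bars are list medians, numbers in brackets are genes measured, and dashed lines mark 2-fold. Fibroblast markers and the processing and crosslinking genes spread to the left like the collagens, and astrocyte markers lie to the right of 0.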

How the data were processed

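RNA was hybridized as labeled sense cDNA to mouse 2.0 ST arrays. The authors combined the probes into gene-level signals by RMA in Affymetrix Expression Console, and the deposited values are on the log2 scale, between about 1.42 and 13.1. For its version, the annotation build and any probe filter, details were not given in the sources used here. The number of arrays, 1 per condition, limits the precision.

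Of 41345 probe sets, 23521 name 1 gene. For each of the 22180 genes the probe set of highest mean over the arrays was taken. All 44 collagen genes matched the RefSeq gene table of GRCm38.p6 by gene identifier, and 3 had a second probe set. Conditions came from the sample labels. As in the methods of the study, conditions were compared by fold-change: differences of log2 values were counted at 2-fold beside the same count over all genes. No test was made. The code was tested on simulated data with known differences.

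The members and lists were chosen with earlier results of these data known. Genes named by rule were those at 2-fold in any of the 4 comparisons, the 10 brightest, the 3 highest and 3 lowest of each comparison at or above the median signal, and partner chains of named genes, 31 in all. The other 13 collagen genes are given as values and were named after these were seen. The lists hold the names of 125 genes, of which those with a probe set of their own were measured. Promoter windows were searched on both strands for 5 motifs. Alternatives were quantile normalization, median centring, a floor at the median signal, leaving out dim genes, averaging the probe sets of a gene, thresholds of 1.5-fold and 3-fold and a wider basement membrane class. Python 3.11.15, numpy 2.4.6, pandas 2.3.3 and matplotlib 3.10.9 were used.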

Additional observations from a re-analysis of the deposited data

Results flagged for a closer look

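Of the 44 collagen genes, 7 had a response to FSK of at least 0.1 in size and of opposite sign in the genotypes. The same count was not made over all genes, so the number is not a result about collagens. With 1 array per condition the difference was not tested. *Col1a1* had a WT response minus CRTC3 KO response of 0.32, from 0.14 and -0.18. *Col5a3* had -0.46, from -0.26 and 0.20, *Col14a1* had 0.35, from 0.22 and -0.13, and the dim *Col6a5* had -0.38, from -0.25 and 0.13. The dim *Col22a1* had the largest value, 0.49, from 0.22 and -0.27, and *Col18a1* had 0.29, from 0.14 and -0.15, and the dim *Col25a1* 0.25, from 0.11 and -0.14. All 44 collagen genes lay within the middle 95% of all genes in this quantity, from -0.55 to 0.62.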

How the results depend on the processing

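Counts of collagen genes changed with the fold threshold. With vehicle, 15 genes were lower in CRTC3 KO at 1.5-fold and 4 at 3-fold, and with FSK 17 and 4. The share of all genes was counted only at 2-fold, so these counts have none beside them. The other counts stayed within 1.5 times the reported ones under every alternative run, and the counts of 0 stayed at 0. With only genes whose mean reached the median signal, the median difference of the basement membrane class was -0.50 over 4 genes with vehicle and -0.53 with FSK, and that of the beaded class was -1.39 over 3 genes and -1.51. The other 80 class medians moved by less than the SD between probe sets. Of 496 values of named genes, 487 did as well; *Col5a1* was -1.16 with vehicle and -1.02 with FSK as the mean of its probe sets. No difference beyond 2-fold changed sign. No paired analysis was possible because each condition has 1 array and no test was made.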

Other observations

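A further probe set names *Col6a1* together with *Rps21* and 2 predicted genes and was left out. Its log2 signal was 7.41 with vehicle and 7.42 with FSK in WT and 7.09 and 7.23 in CRTC3 KO, a difference of -0.32 and -0.19, against -1.39 and -1.23 in the probe set used for *Col6a1*.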
